A study of Mus musculus with 12 samples.

Results

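Glycolysis splits glucose into pyruvate in the cytosol, and lactate export lets the pathway run on by carrying its end product out of the cell. The genes described here are 10 of the 55335 genes quantified in each of 12 RNA-seq libraries of mouse BMDCs, chosen by symbol: the glucose transporter Slc2a1, the hexokinases Hk2 and Hk3, the phosphofructokinases Pfkl and Pfkp, the regulatory enzyme Pfkfb3, the aldolase Aldoa, the enolase Eno1, the lactate dehydrogenase Ldha and the lactate exporter Slc16a3. The symbol Aldoa is carried by 2 gene identifiers, of which the second held at most 8 counts in a library, so that the values are those of the first and all 10 genes passed the filter on low counts. BMDCs were grown from bone marrow of C57BL/6 mice for 6 days with GM-CSF, and the 4 groups of 3 libraries were WT (genotype CreER, no stimulation), WTL (CreER, LPS at 100 ng/ml for 3 h), KO (CreER;CTCF fl/fl, no stimulation) and KOL (CreER;CTCF fl/fl, the same LPS). Rosa26-CreER, a tamoxifen-inducible recombinase made in every cell type, was present in all 4 groups, and the Ctcf alleles were removed with 4-OH tamoxifen on the first day of culture. Whether WT cultures also received 4-OH tamoxifen is not clear from the sources used here, so that the drug and the deletion cannot be told apart. The bone marrow came from adult male and female mice, and the floating cells were enriched for CD11c with magnetic beads. Each condition had 3 biological replicates, but nothing ties a replicate number to an animal.

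As background, hexokinases trap glucose in the cell by phosphorylating it, and phosphofructokinase commits it to the pathway. Pfkfb3 makes fructose 2,6-bisphosphate, the strongest activator of phosphofructokinase. Aldolase and enolase act after phosphofructokinase, and Ldha turns pyruvate into lactate while restoring NAD+. Dendritic cells are known to raise glycolysis within minutes to hours of sensing LPS, and the transcription factor HIF drives many of these genes when oxygen is low or TLR4 is engaged.

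Expected counts summed to 12769773 to 16586334 per library. No replicates of a group were equal within counting error, since chi-square over genes, divided by its degrees of freedom, was 1.66 to 77.7. By this measure WTL replicate 2 was farthest from its group (77.7 and 72.5, against 28.3 between the other two), and it had 5.17% of its counts in ribosomal RNA genes, against at most 1.18% in the other libraries. KOL replicate 2 was farthest in its group (27.2 and 28.5, against 8.07). The deviations of WTL replicate 1 and KOL replicate 2 from their group means correlated at 0.326 across genes, against -0.286 to 0.235 for the other pairs of libraries from different groups. The deleted gene itself, Ctcf, had 1051, 987 and 975 normalized counts in WT libraries, 570, 562 and 516 in KO libraries, 886, 817 and 745 after LPS in WT (WTL) and 564, 530 and 526 after LPS in KO (KOL). For Ctcf the CTCF-deficient libraries all lay below the others, and it fell 1.83-fold in KO against WT (log2 fold change -0.87 ± 0.08, SE, adjusted p = 3.9e-07). Normalized counts are TMM-scaled counts on a common library size, and adjusted p-values are from edgeR's quasi-likelihood test over 14008 genes.

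The cells carried dendritic cell markers, of which 8 of 9 had at least 1 TPM in every library, together with 8 of 9 macrophage or monocyte markers. Summed dendritic cell marker TPM was 12806 to 13569.5 in WT, 12574 to 17342 in WTL, 8272.6 to 8629.5 in KO and 12602 to 17865 in KOL. Summed macrophage or monocyte marker TPM was 25406 to 27499.6 in WT, 14125 to 18923 in WTL, 46061 to 48567 in KO and 18277 to 25871 in KOL, most of it from Lyz2. In KO against WT, 4 of the macrophage or monocyte markers rose and 3 fell, and 1 of the dendritic cell markers rose and 5 fell. With LPS, 6 dendritic cell markers rose and 0 fell in WT and 8 rose and 1 fell in CTCF-deficient cells. Macrophage or monocyte markers split into 2 and 2 and into 2 and 4. In KOL against WTL, 3 dendritic cell markers rose and 3 fell, and 2 macrophage or monocyte markers rose and 3 fell. Over all genes tested, 22.2% rose and 22.4% fell in KO against WT, and 30.0% and 30.2% did with LPS in WT. These shares were 33.6% and 33.9% in KOL against KO, and 21.4% and 23.3% in KOL against WTL. Of 8 proliferation markers, 6 fell in each LPS comparison, with 0 rising in WT and 1 in CTCF-deficient cells. In KO against WT 6 fell and 2 rose, and in KOL against WTL 5 fell and 1 rose. Proliferation markers summed to 656 to 706 TPM in WT and 356 to 433 TPM in WTL, against 521 to 537 TPM in KO and 403 to 434 TPM in KOL. Neutrophil or granulocyte markers summed to 449 to 481 TPM in WT, 397 to 507 TPM in WTL, 242 to 274 TPM in KO and 334 to 386 TPM in KOL. They were carried by S100a8, S100a9 and Mmp8, while Ly6g, which defines neutrophils, was at most 1.81 TPM. Of 8 of them tested, 1 rose and 7 fell in KO against WT, and 0 and 5 did in KOL against WTL. With LPS, 5 of these rose and 1 fell in WT, and 6 rose and 1 fell in CTCF-deficient cells. Mast cell or basophil markers summed to at most 8.74 TPM, B cell markers to 7.42, T or NK cell markers to 3.25 and erythroid markers to 0.96. The part of these shifts in the results for the glycolysis genes was not tested, and in bulk samples fewer cells of a type and less RNA per cell cannot be told apart.

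Promoters of 4 of the genes are shown because their RNA moved in different ways, as the values further on give: Hk2 with both LPS and Ctcf deletion, Hk3 with LPS, Ldha mainly with Ctcf deletion and Slc16a3 with LPS in the downward direction. Each is the RefSeq sequence of the 250 bases before a transcription start (GRCm38.p6, the sequence of mm10), written 5′ to 3′ on the gene's strand, and the capitals mark ACGTG or GCGTG on either strand, the core letters that HIF recognizes.
Hk2 (chr6:82774455-82774704, minus strand): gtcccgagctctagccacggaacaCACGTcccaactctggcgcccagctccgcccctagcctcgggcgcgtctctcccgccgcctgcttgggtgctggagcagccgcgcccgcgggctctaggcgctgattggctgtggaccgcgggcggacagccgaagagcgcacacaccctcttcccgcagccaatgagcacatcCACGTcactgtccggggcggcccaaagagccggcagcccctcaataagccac
Hk3 (chr13:55021386-55021635, minus strand): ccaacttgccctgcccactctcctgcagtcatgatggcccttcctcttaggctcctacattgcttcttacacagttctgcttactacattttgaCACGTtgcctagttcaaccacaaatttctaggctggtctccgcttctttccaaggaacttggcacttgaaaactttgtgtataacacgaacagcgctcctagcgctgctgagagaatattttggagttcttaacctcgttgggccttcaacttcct
Ldha (chr7:46845554-46845803, plus strand): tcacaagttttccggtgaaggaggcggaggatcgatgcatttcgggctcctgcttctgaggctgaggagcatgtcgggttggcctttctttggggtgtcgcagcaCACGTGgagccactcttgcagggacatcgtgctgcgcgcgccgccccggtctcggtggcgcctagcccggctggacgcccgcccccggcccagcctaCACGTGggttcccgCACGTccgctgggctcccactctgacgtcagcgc
Slc16a3 (chr11:120948817-120949066, plus strand): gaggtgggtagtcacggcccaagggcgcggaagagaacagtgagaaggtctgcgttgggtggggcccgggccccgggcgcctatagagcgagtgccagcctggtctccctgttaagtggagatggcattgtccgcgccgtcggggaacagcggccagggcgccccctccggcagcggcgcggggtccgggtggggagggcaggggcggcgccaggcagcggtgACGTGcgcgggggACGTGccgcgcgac
Counted by strand, Ldha held 5 of these matches, Hk2 and Slc16a3 held 2 each and Hk3 held 1. Each of the 2 palindromes CACGTG of Ldha matches on both strands, so that its distinct sites are fewer than its matches. RefSeq lists 16 starts for the 10 genes. Of these windows, 15 held ACGTG or GCGTG, with at least 1 for each of the 10 genes. Over all genes, 38.6% of 32851 windows of the same length did. Some windows of Eno1 and of Aldoa overlap and share matches, and a gene with several starts has more windows in which a match can fall. Counts by gene are therefore not on the same footing as shares of windows. The G and C content of the 16 windows was 47.2% to 73.6%, against a median of 52.4% over all windows, with that of Hk3 and 1 of Aldoa below this median. The palindrome CACGTG, which contains ACGTG, was found for 2 genes (Ldha and the second start of Pfkfb3) and in 6.02% of all windows. AGGGGGC, from the core of the CTCF motif, was found for 3 genes (Pfkfb3, Slc2a1 and Slc16a3) and in 9.43% of all windows, and TTCNNNGAA, the letters STAT factors bind, for 0 of the 10 and in 7.02%. These motifs were picked after the values were seen, and a match describes letters only.

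Levels differed widely along the pathway when compared per length. In WT, mean TPM was 1070 ± 71.6 (SD, n = 3) for Aldoa, 762 ± 64.4 for Eno1 and 631 ± 28.0 for Ldha. Pfkp followed at 156 ± 7.12, Slc16a3 at 97.8 ± 11.1, Slc2a1 at 46.0 ± 3.61, Pfkfb3 at 45.7 ± 2.89, Hk2 at 36.6 ± 4.89, Hk3 at 29.6 ± 1.05 and Pfkl at 23.9 ± 2.75. Of these neighbours in WT, only the libraries of Slc2a1 and Pfkfb3 overlapped. Aldoa, Eno1 and Ldha were the 3 highest and Pfkp the fourth in every group. The lower ranks changed: Slc16a3 held rank 5 in WT and KO (85.0 ± 4.08 TPM in KO), rank 8 in WTL, where its 34.0 ± 2.16 TPM overlapped the 37.6 ± 2.26 of Hk3, and rank 10 in KOL (23.6 ± 3.65), whereas Hk2 held rank 5 in KOL at 139 ± 26.2. Pfkfb3 held rank 7 in WT and rank 10 in KO (19.2 ± 1.53). The other neighbours whose libraries overlapped were Ldha (552 ± 27.6) and Eno1 (522 ± 55.2) in WTL, Pfkfb3 (67.8 ± 3.91) and Hk2 (61.1 ± 6.43) in WTL, Eno1 (344 ± 63.1) and Ldha (338 ± 20.3) in KOL, and Pfkl (29.1 ± 3.04) and Slc2a1 (28.5 ± 0.917) in KOL.

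**Figure D1:**
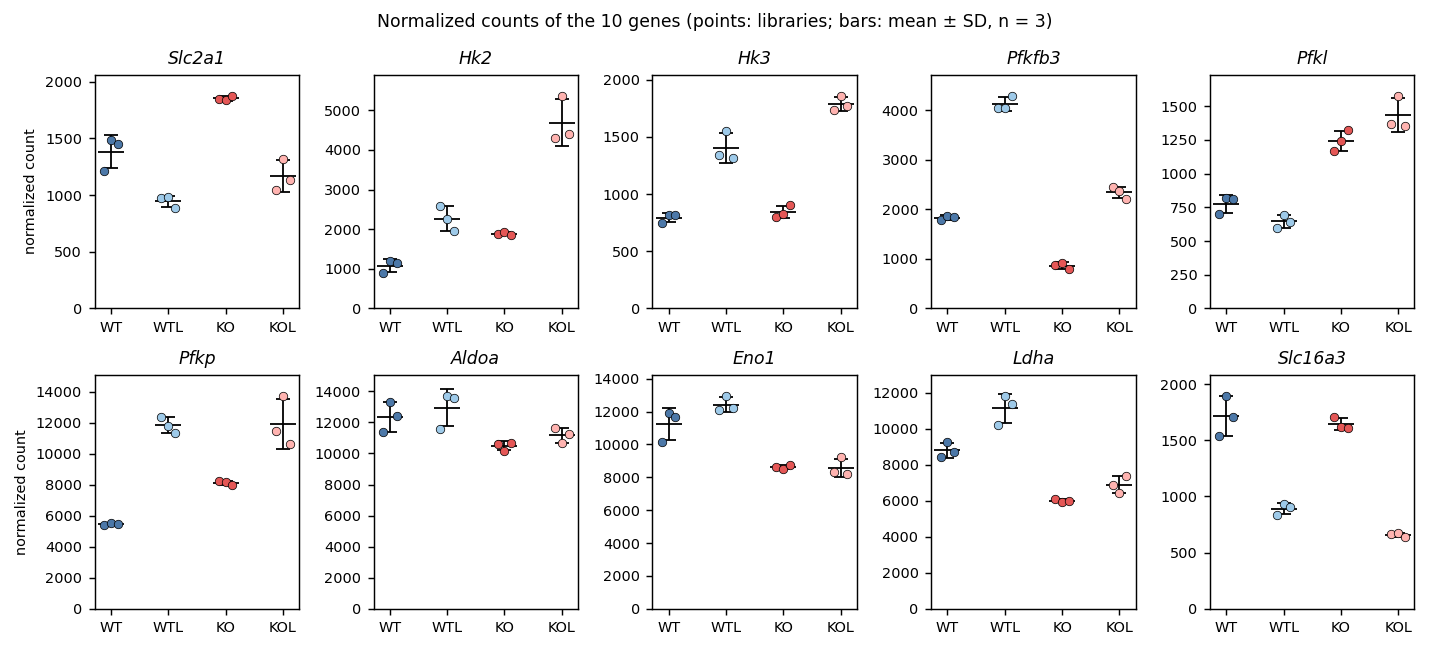
Normalized counts (vertical axes, from 0) of the 10 genes in the 4 groups (horizontal axes); points are libraries and bars the mean ± SD of 3. Hk2 was highest in KOL, at 4292 to 5366, Pfkfb3 was lowest in KO, at 793 to 926, and Slc16a3 was lowest in KOL, at 638 to 672.

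With LPS in WT cells, 5 of the 10 genes rose and 3 fell by adjusted p alone, where 30.0% of all genes tested rose and 30.2% fell. Past the study's cutoff of 2-fold as well, 3 rose (Hk2, Pfkfb3 and Pfkp) and 0 fell, against 12.6% and 9.99% of all genes. Hk2 was short of 2-fold when WT replicate 1 (log2 fold change 0.87) or WTL replicate 1 (0.96) was left out, which left 2. Their median log2 fold change was 0.24, beside -0.02 over all genes. With LPS in CTCF-deficient cells (KOL against KO), 5 rose and 2 fell by adjusted p, against 33.6% and 33.9% of all genes, and past 2-fold, a cutoff carried over here from WT cells, 3 rose (Hk2, Hk3 and Pfkfb3) and 1 fell (Slc16a3), against 15.1% and 13.0%. With Ctcf deletion in unstimulated cells, 4 rose and 4 fell by adjusted p, against 22.2% and 22.4% of all genes. Past the cutoff of 1.3-fold used there, the same 4 rose (Slc2a1, Hk2, Pfkl and Pfkp) and 3 fell (Pfkfb3, Eno1 and Ldha), against 17.3% and 17.2%. Slc2a1 was short of 1.3-fold without WT replicate 1 (0.30) and on log2(TPM + 1) (0.28), and Eno1 without WT replicate 2 or KO replicate 2. With Ctcf deletion in LPS-stimulated cells (KOL against WTL), 4 rose and 5 fell by adjusted p, against 21.4% and 23.3% of all genes, and past 1.5-fold 2 rose (Hk2 and Pfkl) and 2 fell (Pfkfb3 and Ldha), against 12.5% in either direction. These comparisons share groups of libraries, so that the counts are not independent of each other.

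**Figure D2:**
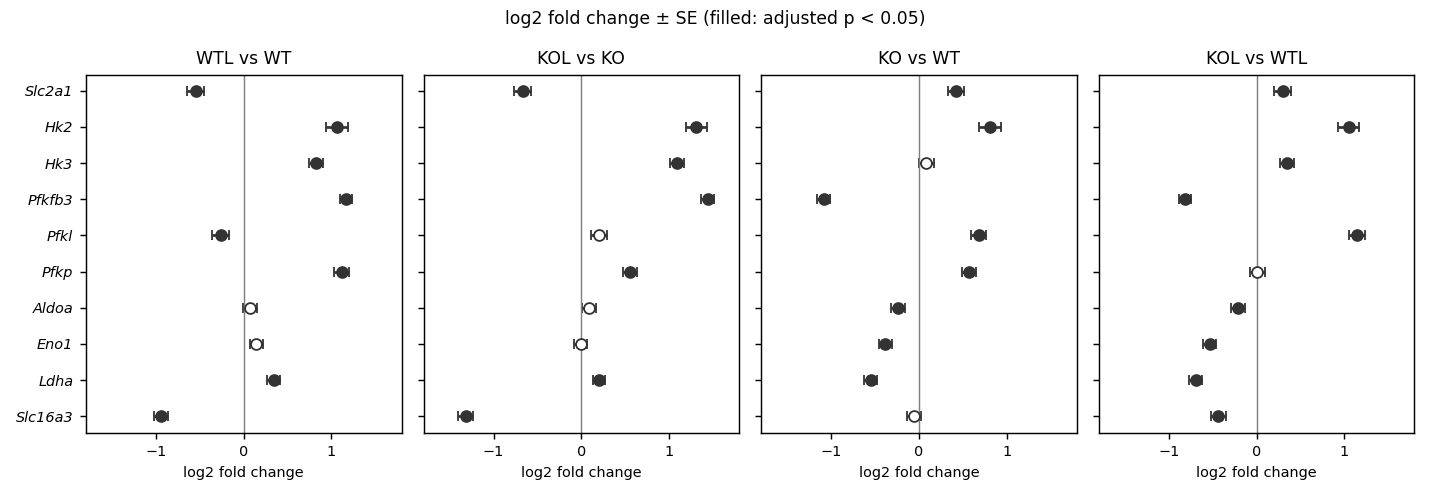
The log2 fold change ± SE (horizontal axes) of each gene, in the order of the pathway from uptake to export, in the 4 comparisons; filled points have an adjusted p below 0.05. Pfkl, at 0.68 in KO against WT and 1.15 in KOL against WTL, and Pfkfb3, at -1.09 and -0.82, moved in opposite directions with Ctcf deletion.

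Glucose uptake. Slc2a1 encodes GLUT1, a widely used glucose transporter of the cell surface (chr4:119108711-119137983, plus strand). It stood at 1215, 1487 and 1451 normalized counts in WT, 971, 979 and 891 in WTL, 1850, 1838 and 1877 in KO and 1042, 1323 and 1136 in KOL. Each LPS group was below its unstimulated group without overlap, and KO was above all the other groups. Slc2a1 fell 1.46-fold with LPS in WT (log2 fold change -0.55 ± 0.10, adjusted p = 2e-04) and 1.59-fold with LPS in CTCF-deficient cells (-0.67 ± 0.10, adjusted p = 2.4e-05). With Ctcf deletion it rose 1.34-fold without LPS (0.42 ± 0.09, adjusted p = 0.0022) and 1.23-fold with LPS (0.30 ± 0.10, adjusted p = 0.021). The rise in KOL against WTL did not pass when WTL replicate 3 or KOL replicate 2 was left out, with log2 fold changes from 0.20 to 0.38 over the left-out libraries.

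Slc2a1 did not hold the largest share of RNA among the transporter genes compared, a measure that does not describe transport. Slc2a6, a related transporter found on lysosomes, held 73.0% ± 0.634 of the summed TPM of Slc2a1, Slc2a3, Slc2a6, Slc2a8 and Slc2a9 in WT and 92.8% ± 0.282 in WTL, and Slc2a1 held 22.2% ± 1.00 and 6.14% ± 0.193. Slc2a6 rose 3.32-fold with LPS in WT (log2 fold change 1.73 ± 0.07, adjusted p = 2.3e-11). In KO, Slc2a1 held 24.9% ± 0.557 and Slc2a3, the high-affinity transporter GLUT3, 3.03% ± 0.360, against 0.528% ± 0.221 for Slc2a3 in WT. Slc2a3 rose 7.34-fold in KO, from 40.1 ± 8.90 to 294 ± 20.1 normalized counts (2.88 ± 0.14, adjusted p = 7.2e-10). The groups did not overlap for the Slc2a1 share in any of the 4 comparisons, for which the exact two-sided permutation test gave p = 0.1, the smallest that 3 libraries against 3 allow.

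**Figure D3:**
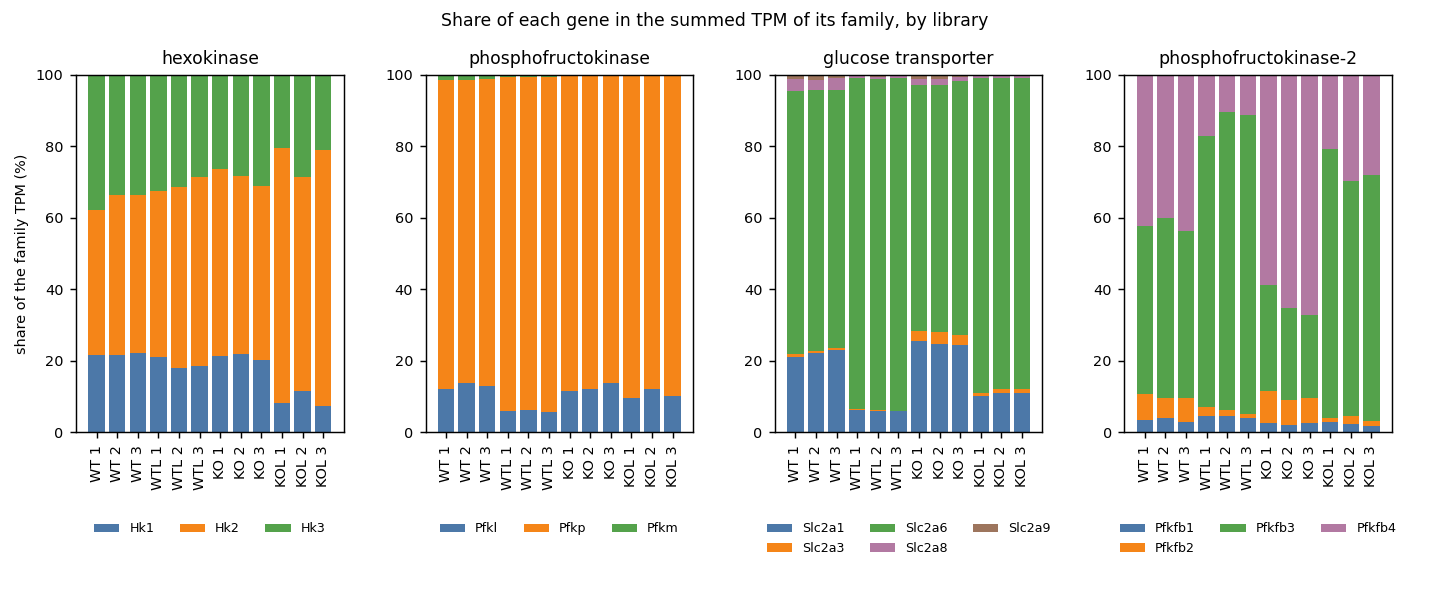
Share of each gene (vertical axes, percent) in the summed TPM of its family in each library (bars, by group and replicate), for genes with a mean share of at least 1% in a group. Pfkfb3 made up 47.9% of its family on average in WT, 80.9% in WTL, 26.0% in KO and 69.9% in KOL, and Hk2 made up 43.1%, 49.9%, 50.2% and 67.5% of the hexokinases.

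Hexokinases. Hk2, the inducible hexokinase that docks on mitochondria (chr6:82725025-82774454, minus strand), rose with both LPS and Ctcf deletion. It stood at 896, 1189 and 1153 normalized counts in WT, 2575, 2262 and 1952 in WTL, 1885, 1931 and 1856 in KO and 4292, 5366 and 4402 in KOL. All KOL libraries were above all others and all WT libraries below all others, while KO lay just below WTL between them. Hk2 rose 2.09-fold with LPS in WT (log2 fold change 1.07 ± 0.12, adjusted p = 3.5e-06), 1.75-fold in KO against WT (0.81 ± 0.12, adjusted p = 8.8e-05), 2.07-fold in KOL against WTL (1.05 ± 0.12, adjusted p = 6.8e-06) and 2.48-fold in KOL against KO (1.31 ± 0.12, adjusted p = 3e-07).

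RSEM's effective length of Hk2, an average over its transcripts weighted by their estimated abundance, was not constant. It was 2798, 2772 and 2882 bases in WT and 3035, 3440 and 3230 in KO, but 3248, 2211 and 2037 in WTL and 1853, 3169 and 1861 in KOL. The longer values with LPS belonged to WTL replicate 1 and KOL replicate 2, the pair with correlated deviations. Because TPM divides by this length, Hk2 stood at 156, 109 and 152 TPM in KOL, where the order of the libraries is the reverse of the counts. Without these 2 libraries the log2 fold changes of the counts were 0.96 in WTL against WT and 1.20 in KOL against KO.

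Hk3, a hexokinase of myeloid cells (chr13:55005985-55021385, minus strand), rose with LPS. It stood at 749, 814 and 820 normalized counts in WT, 1338, 1554 and 1315 in WTL, 798, 825 and 902 in KO and 1736, 1859 and 1774 in KOL. WT and KO overlapped, and both LPS groups were above them. The rise was 1.77-fold in WTL (log2 fold change 0.82 ± 0.08, adjusted p = 7.5e-07) and 2.13-fold in KOL (1.09 ± 0.08, adjusted p = 2.9e-08). In KO against WT the log2 fold change was 0.08 ± 0.08 (adjusted p = 0.44), whereas KOL was 1.28-fold above WTL (0.35 ± 0.08, adjusted p = 0.0026).

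The other hexokinases were Hk1, with 21.8% ± 0.252 of the family's TPM in WT and 9.05% ± 2.10 in KOL, and Hkdc1, at a mean of at most 0.0842%. Summed hexokinase TPM was 84.7 ± 7.15 in WT, 122 ± 5.89 in WTL, 104 ± 2.24 in KO and 204 ± 20.2 in KOL. Hk2 held 43.1% ± 2.28, 49.9% ± 3.17, 50.2% ± 1.81 and 67.5% ± 6.55 of it in that order, and its share did not overlap between the groups in any of the 4 comparisons (exact two-sided permutation p = 0.1 each). The KOL libraries gave 71.22%, 59.96% and 71.37%, of which the lowest is replicate 2 with the long effective length. Hk3 held 35.0% ± 2.25, 30.8% ± 1.99, 28.4% ± 2.10 and 23.4% ± 4.51. Hk1 rose with LPS in WT (0.79 ± 0.09, adjusted p = 4.8e-06), and its LPS response was smaller in CTCF-deficient cells (interaction -0.59 ± 0.13, adjusted p = 0.0067).

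Phosphofructokinase and its regulator. Pfkp, the platelet-type isozyme (chr13:6579768-6648777, minus strand), stood at 5421, 5511 and 5458 normalized counts in WT, 12360, 11818 and 11356 in WTL, 8227, 8148 and 7997 in KO and 11435, 13718 and 10632 in KOL. WT was lowest and KO next, while WTL and KOL overlapped. Pfkp rose 2.17-fold with LPS in WT (log2 fold change 1.12 ± 0.08, adjusted p = 3.5e-08) and 1.49-fold with Ctcf deletion (0.57 ± 0.08, adjusted p = 6e-05). With LPS in CTCF-deficient cells it rose 1.47-fold (0.55 ± 0.08, adjusted p = 3.8e-05), but on the log2(TPM + 1) scale this difference was -0.02 (limma, adjusted p = 0.86). KOL against WTL gave 0.01 ± 0.08 (adjusted p = 0.93), and 0.25 on TPM scaled to a common median (adjusted p = 0.035). TPM divides by the effective length of Pfkp, which was not constant. It was 3565, 3242 and 3243 bases in WT and 4105, 3517 and 3279 in WTL. In KO it was 2881, 2940 and 2966 bases, and in KOL 2902, 3743 and 2897. The 3′ end of Pfkp shares 748 bases with transcripts of Pitrm1 on the opposite strand, which held 482 to 1241 counts, and strand was not stated for the counting, so that these reads cannot be told apart.

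Pfkl, the liver-type isozyme (chr10:77986947-78010083, minus strand), stood at 699, 818 and 810 normalized counts in WT, 598, 695 and 643 in WTL, 1171, 1238 and 1320 in KO and 1369, 1577 and 1352 in KOL. Every CTCF-deficient library was above every WT and WTL library, and WTL lay just below WT without overlap. Pfkl rose 1.60-fold in KO against WT (log2 fold change 0.68 ± 0.09, adjusted p = 2.6e-05) and 2.22-fold in KOL against WTL (1.15 ± 0.09, adjusted p = 1.7e-07). With LPS it fell 1.20-fold in WT (-0.27 ± 0.09, adjusted p = 0.023), a call that was lost when WTL replicate 1 or 3 was left out (-0.41 to -0.22 over the left-out libraries). This fall was -0.735 on log2(TPM + 1) (limma, adjusted p = 1.2e-04) but did not pass on median-scaled TPM (-0.218, limma, adjusted p = 0.11). In KOL against KO the log2 fold change was 0.20 ± 0.09 (adjusted p = 0.055), and -0.28 on the log2(TPM + 1) scale (adjusted p = 0.036).

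Pfkp held 85.5% ± 0.776 of the summed phosphofructokinase TPM in WT, 93.4% ± 0.292 in WTL, 87.2% ± 1.12 in KO and 89.2% ± 1.29 in KOL. The share of Pfkl was 13.0% ± 0.828 in WT and 5.99% ± 0.300 in WTL, without overlap (exact two-sided permutation p = 0.1), and 12.5% ± 1.09 in KO and 10.6% ± 1.28 in KOL (p = 0.2, exact). Pfkm, the muscle isozyme, made up at most 1.51% on average and fell in KO against WT (log2 fold change -1.61 ± 0.17, adjusted p = 3.9e-06). Summed TPM of the 3 isozymes was 183 ± 9.79 in WT, 233 ± 17.7 in WTL, 284 ± 4.00 in KO and 275 ± 17.4 in KOL.

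Pfkfb3 (chr2:11471433-11554077, minus strand) rose with LPS and fell with Ctcf deletion. It stood at 1788, 1868 and 1844 normalized counts in WT, 4045, 4038 and 4288 in WTL, 869, 926 and 793 in KO and 2441, 2359 and 2216 in KOL. No groups overlapped, and the order was KO, WT, KOL and WTL from the lowest. LPS raised it 2.25-fold in WT (log2 fold change 1.17 ± 0.07, adjusted p = 3.6e-09) and 2.71-fold in CTCF-deficient cells (1.44 ± 0.07, adjusted p = 4.2e-10). Ctcf deletion lowered it 2.13-fold without LPS (-1.09 ± 0.07, adjusted p = 2.5e-08) and 1.76-fold with LPS (-0.82 ± 0.07, adjusted p = 4e-07).

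Its paralog Pfkfb4 moved the opposite way, falling 2.18-fold with LPS in WT (log2 fold change -1.13 ± 0.12, adjusted p = 1.3e-06) and rising in KO against WT (0.35 ± 0.11, adjusted p = 0.019), the latter a call that log2(TPM + 1) did not give (0.23, adjusted p = 0.45). In WT the Pfkfb3 and Pfkfb4 shares of the family's TPM were 47.9% ± 2.06 and 42.0% ± 1.91, in WTL 80.9% ± 4.22 and 13.0% ± 3.57, in KO 26.0% ± 3.25 and 63.8% ± 4.36, and in KOL 69.9% ± 4.81 and 26.2% ± 4.82. The Pfkfb3 share did not overlap between the groups in any of the 4 comparisons (exact two-sided permutation p = 0.1 each). Pfkfb2 fell 3.40-fold with LPS in WT (-1.76 ± 0.24, adjusted p = 1.6e-05), and Pfkfb1, at a mean share of 2.28% to 4.39%, fell in KO against WT (-0.79 ± 0.21, adjusted p = 0.0071).

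Lower glycolysis. Aldoa, Eno1 and Ldha, the most abundant of the 10 genes, were lower in CTCF-deficient cells, with falls of 1.16-fold to 1.62-fold. With LPS, Ldha rose on normalized counts, Aldoa and Eno1 did not pass the test, and all 3 were lower on the log2(TPM + 1) scale. Ldha (chr7:46841475-46855627, plus strand) stood at 8454, 9274 and 8700 normalized counts in WT, 10244, 11826 and 11367 in WTL, 6099, 5925 and 5997 in KO and 6869, 6455 and 7379 in KOL. No groups overlapped, and both CTCF-deficient groups were below both others. It fell 1.47-fold in KO against WT (log2 fold change -0.55 ± 0.07, adjusted p = 2.7e-05) and 1.62-fold in KOL against WTL (-0.69 ± 0.07, adjusted p = 3.2e-06). With LPS, Ldha rose 1.27-fold in WT (0.34 ± 0.07, adjusted p = 0.0011), a direction that turned on the log2(TPM + 1) scale (-0.19, limma, adjusted p = 0.042), and 1.15-fold in KOL against KO (0.20 ± 0.07, adjusted p = 0.026), which also turned there (-0.26, adjusted p = 0.011). The rise in KOL against KO did not pass when any KO library or KOL replicate 3 was left out, with log2 fold changes from 0.15 to 0.25 over the left-out libraries.

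Ldha held 97.4% ± 0.172 of the summed TPM of Ldha and Ldhb in WT and 96.3% ± 0.327 in KO, so that Ldhb, the isozyme that favours the reverse reaction, was a minor one throughout. Summed TPM of both was 648 ± 29.8 in WT, 564 ± 28.5 in WTL, 419 ± 1.78 in KO and 347 ± 20.4 in KOL.

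Eno1 (chr4:150236721-150248879, plus strand) stood at 10120, 11930 and 11693 normalized counts in WT, 12099, 12943 and 12232 in WTL, 8645, 8483 and 8745 in KO and 8323, 9212 and 8229 in KOL. KO and KOL overlapped and lay below WT and WTL. Eno1 fell 1.304-fold in KO against WT (log2 fold change -0.38 ± 0.08, adjusted p = 7.9e-04) and 1.45-fold in KOL against WTL (-0.53 ± 0.08, adjusted p = 4.7e-05). On median-scaled TPM the difference of Eno1 in KO against WT was -0.26 (adjusted p = 0.13). Its LPS differences were 0.14 ± 0.08 in WT (adjusted p = 0.11) and -0.01 ± 0.08 in CTCF-deficient cells (adjusted p = 0.95), and on the log2(TPM + 1) scale -0.55 (adjusted p = 0.0032) and -0.75 (adjusted p = 3.9e-04). Of the counts of Eno1 and its 9 near-identical copies, 5.707% to 10.997% were assigned to the copies, and with the copies added the log2 fold changes were -0.36 in KO against WT (adjusted p = 0.0022), which is short of the 1.3-fold cutoff, and -0.54 in KOL against WTL (adjusted p = 7.1e-05). The effective length of Eno1 was 1379 to 1435 bases in WT and 1313 to 1369 in KO, but 1696 and 1669 in WTL replicates 3 and 2 and 1765 and 1767 in KOL replicates 1 and 3.

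Aldoa (chr7:126795234-126800751, minus strand) stood at 11380, 13311 and 12418 normalized counts in WT, 11604, 13693 and 13559 in WTL, 10640, 10179 and 10682 in KO and 11609, 10655 and 11261 in KOL. KO lay below WT without overlap, and in the other 3 comparisons the groups overlapped. Aldoa fell 1.18-fold in KO against WT (log2 fold change -0.24 ± 0.08, adjusted p = 0.027) and 1.16-fold in KOL against WTL (-0.21 ± 0.08, adjusted p = 0.043). The fall in KO did not pass when WT replicate 2 or any KO library was left out (-0.33 to -0.21), and the fall in KOL did not pass when any library other than WTL replicate 1 was left out (-0.29 to -0.17). LPS gave 0.07 ± 0.08 in WT (adjusted p = 0.49) and 0.09 ± 0.08 in CTCF-deficient cells (adjusted p = 0.33), and -0.46 and -0.37 on the log2(TPM + 1) scale (adjusted p = 6.8e-04 and 0.0027). The near-identical copies of Aldoa and Ldha held at most 0.049% and 0.933% of the summed counts.

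Lactate export. Slc16a3 encodes MCT4, the transporter through which highly glycolytic cells release lactate (chr11:120948480-120960868, plus strand). It stood at 1538, 1894 and 1707 normalized counts in WT, 838, 933 and 907 in WTL, 1711, 1619 and 1607 in KO and 670, 672 and 638 in KOL. WT and KO overlapped, WTL was below both, and KOL was below WTL. Slc16a3 fell 1.92-fold with LPS in WT (log2 fold change -0.94 ± 0.08, adjusted p = 1.7e-07), which is short of the 2-fold cutoff, and 2.50-fold with LPS in CTCF-deficient cells (-1.32 ± 0.08, adjusted p = 4.1e-09). Leaving out WT replicate 1 or 3 put the fall in WT past 2-fold, with log2 fold changes from -1.09 to -0.90 over the left-out libraries. Ctcf deletion gave -0.06 ± 0.08 without LPS (adjusted p = 0.59) and a 1.35-fold fall with LPS (-0.44 ± 0.08, adjusted p = 6.5e-04).

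Slc16a3 held 93.0% ± 1.23 of the summed TPM of Slc16a1, Slc16a3 and Slc16a7 in WT, 90.2% ± 0.976 in WTL, 91.9% ± 1.08 in KO and 85.4% ± 2.82 in KOL. Slc16a1, or MCT1, fell in WTL against WT (log2 fold change -0.29 ± 0.12, adjusted p = 0.045) and in KO against WT (-0.32 ± 0.11, adjusted p = 0.032), calls that median-scaled TPM did not give (adjusted p = 0.1 and 0.14). The summed TPM was 105 ± 10.7 in WT, 37.7 ± 1.97 in WTL, 92.5 ± 4.82 in KO and 27.5 ± 3.34 in KOL, without overlap between unstimulated and LPS groups.

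The LPS response itself was compared between CTCF-deficient and WT cells by an interaction term, which 8.70% of all genes passed with a higher and 8.75% with a lower response in CTCF-deficient cells. Of the 10 genes, 1 passed in the first direction and 2 in the second. The LPS response of Pfkl was 0.47 ± 0.13 higher on the log2 scale (adjusted p = 0.022), from -0.27 in WT to 0.20. That of Pfkp was 0.56 ± 0.12 lower (interaction -0.56, adjusted p = 0.0044), from 1.12 to 0.55, and that of Slc16a3 0.38 ± 0.12 lower (interaction -0.38, adjusted p = 0.036), from -0.94 to -1.32. Only the Pfkp interaction kept its call in all of the alternatives tried, from -0.68 to -0.48, whereas that of Slc16a3 was lost in 13 and that of Pfkl in 5 of 22. Pfkfb3 (0.27 ± 0.10, adjusted p = 0.084) and Hk3 (0.27 ± 0.12, adjusted p = 0.13) did not pass, nor did Hk2 (0.24 ± 0.17, adjusted p = 0.37), for which TPM gave 0.64 (adjusted p = 0.078).

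Scaling bears on the LPS comparisons. TMM assumes that most genes do not change, while TPM sets the same total in every library, and on log2(TPM + 1) the median of all genes was -0.44 in WTL against WT, -0.38 in KOL against KO, -0.10 in KO against WT and -0.05 in KOL against WTL. The calls then split into 1694 higher and 7496 lower in WTL against WT, beside 4209 and 4224 with TMM, and into 2225 and 6931 in KOL against KO, beside 4704 and 4752. In KO against WT the split was 1804 and 3102 beside 3110 and 3131, and in the interaction 913 and 607 beside 1218 and 1225. Measured against those medians, Hk2, Hk3, Pfkfb3, Pfkp and Ldha were higher and Slc16a3 and Slc2a1 lower in both LPS comparisons under both scalings. After TPM was brought to a common median per library, Ldha was 0.35 (adjusted p = 0.0041), Aldoa 0.09 (adjusted p = 0.41) and Eno1 -0.002 (adjusted p = 0.99) in WTL against WT, and Pfkp 0.46 (adjusted p = 6.5e-04) in KOL against KO. Total RNA per cell was not measured, so that these scalings cannot be ranked with these data.

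**Figure D4:**
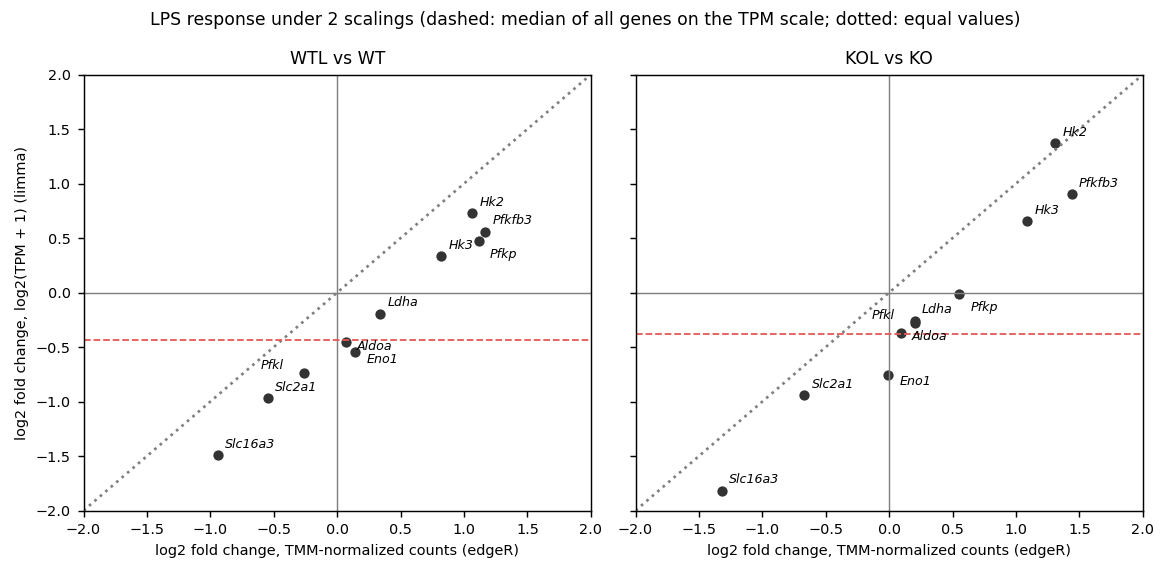
Log2 fold change of the 10 genes with LPS on TMM-normalized counts (horizontal axes) and on log2(TPM + 1) (vertical axes) in WT (left) and CTCF-deficient cells (right). All points but that of Hk2 at right lie below the dotted line of equal values, and the dashed lines mark the medians of all genes, -0.44 and -0.38.

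The other glycolysis enzymes were read from lists of pathway genes. Of 18 of them, 14 passed the filter on low counts, and with Ctcf deletion in LPS-stimulated cells 9 fell and 2 rose, where 23.3% of all genes fell and 21.4% rose, with a median log2 fold change of -0.34 beside -0.035 over all genes. On the log2(TPM + 1) scale 7 fell and 2 rose, and on median-scaled TPM 4 fell and 2 rose. In KO against WT, 4 rose and 5 fell (median -0.04), or 2 and 4 on log2(TPM + 1) and 3 and 2 on median-scaled TPM. With LPS in WT 5 rose and 3 fell (median 0.01), or 2 and 8 on log2(TPM + 1) and 4 and 3 on median-scaled TPM. Over all genes, median-scaled TPM called 2541 higher and 2027 lower in KO against WT, and 3693 and 3253 with LPS in WT. Pgk1, the ATP-yielding phosphoglycerate kinase, rose 1.83-fold in KO, from 8871 ± 367 to 16226 ± 34.5 normalized counts (log2 fold change 0.87 ± 0.06, adjusted p = 5.3e-08), and was again higher in KOL than in WTL (0.61 ± 0.06, adjusted p = 2.1e-06). Eno2, a second enolase at a low level, rose 2.66-fold with LPS in WT (1.41 ± 0.15, adjusted p = 1.4e-06) and 1.41-fold in KO (0.49 ± 0.16, adjusted p = 0.019), while Eno3 fell 2.10-fold in KO (-1.07 ± 0.17, adjusted p = 1.3e-04). Among abundant enzymes picked after their values were seen, Gapdh fell in KO (-0.29 ± 0.09, adjusted p = 0.012) and in KOL against WTL (-0.32 ± 0.09, adjusted p = 0.0068), calls that log2(TPM + 1) did not give (adjusted p = 0.21 and 0.06). Nor did it give the rise of Eno2 in KO (adjusted p = 0.2). Pkm, the last enzyme before pyruvate, gave -0.00 ± 0.07 in KO (adjusted p = 0.97) and fell in KOL against WTL (-0.49 ± 0.07, adjusted p = 6.4e-05).

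Genes around the pathway were mixed in direction, and their counts stand beside 22.2% of all genes that rose and 22.4% that fell in KO against WT, and 30.0% and 30.2% with LPS in WT. Of 9 other transport and lactate genes tested of 12, 1 rose (Slc2a6) and 5 fell with LPS in WT, and 2 rose and 3 fell in KO, while on the log2(TPM + 1) scale, with 8 tested, 1 and 6 did with LPS and 2 and 2 in KO. Of 4 genes that set fructose bisphosphate levels tested of 6, 2 rose and 2 fell with LPS in WT, and 1 rose and 1 fell in KO, or 0 and 2 and 0 and 1 on that scale. Among 14 genes of pyruvate entry into mitochondria tested of 15, 5 rose and 4 fell in KO, or 2 and 4 on that scale. The pyruvate carriers Mpc1 (0.52 ± 0.08, adjusted p = 5.5e-05) and Mpc2 (0.63 ± 0.11, adjusted p = 3.7e-04) were among those that rose, of which Mpc2 did not pass on log2(TPM + 1) (0.31, adjusted p = 0.22), and Pdk1, the kinase that blocks pyruvate dehydrogenase, fell 2.04-fold (-1.03 ± 0.08, adjusted p = 9.5e-08). With LPS in WT, 2 of these 14 rose and 3 fell, or 0 and 12 on the log2(TPM + 1) scale and 2 and 2 on median-scaled TPM. The percentages of all genes given above are those of TMM and do not apply to log2(TPM + 1). Over all genes, log2(TPM + 1) called 1694 higher and 7496 lower with LPS in WT, and 1804 and 3102 in KO. Counts on that scale, here and below, stand beside these numbers, and falls with LPS were the rule there.

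In the pentose phosphate pathway, which branches off after hexokinase, 2 of 8 genes rose and 3 fell in KO, and 1 rose and 4 fell with LPS in WT, or 1 and 3 and 0 and 6 on the log2(TPM + 1) scale. G6pdx, the enzyme of its first step, rose 1.41-fold in KO (log2 fold change 0.50 ± 0.10, adjusted p = 7.4e-04) and Rpia 1.75-fold (0.81 ± 0.10, adjusted p = 2.1e-05), while H6pd fell in KO (-0.51 ± 0.08, adjusted p = 1e-04) and with LPS (-1.03 ± 0.08, adjusted p = 6.8e-08). On log2(TPM + 1) the rise of G6pdx did not pass (0.47, adjusted p = 0.054). Of 10 genes of glycogen metabolism, 3 rose and 5 fell in KO, and 1 rose and 4 fell with LPS in WT, or 1 and 5 and 0 and 8 on that scale.

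Regulators of these genes were tested for 12 of 14 symbols, of which 2 rose and 5 fell in KO and 3 rose and 5 fell with LPS in WT, or, with 11 tested, 2 and 5 and 0 and 8 on the log2(TPM + 1) scale. Vhl, which targets HIF for degradation, rose 3.00-fold in KO, from 1098 ± 11.4 to 3299 ± 33.5 normalized counts (log2 fold change 1.59 ± 0.07, adjusted p = 5.9e-10). Txnip, which restrains glucose uptake, fell 1.98-fold in KO (-0.99 ± 0.07, adjusted p = 7.8e-08), and Arnt, the partner of HIF, rose 1.45-fold (0.53 ± 0.08, adjusted p = 8.2e-05). Myc fell 2.38-fold with LPS in WT (-1.25 ± 0.15, adjusted p = 6.8e-06). Of 13 other HIF target genes tested of 14, 4 rose and 6 fell in KO, 7 rose and 5 fell in KOL against WTL, and 5 rose and 6 fell with LPS in WT, or 4 and 7, 5 and 2, and 2 and 8 on that scale. In KOL against WTL, 21.4% of all genes rose and 23.3% fell with TMM, and log2(TPM + 1) called 2000 higher and 2568 lower. Ndrg1, a stress-response gene, rose 5.61-fold with LPS in WT (2.49 ± 0.12, adjusted p = 2.7e-10) and 2.57-fold in KO (1.36 ± 0.12, adjusted p = 3.3e-07). P4ha1, a prolyl hydroxylase of collagen, rose 5.09-fold in KO (2.35 ± 0.12, adjusted p = 1.3e-09), whereas Bnip3, a mitophagy receptor, fell 1.88-fold (-0.91 ± 0.12, adjusted p = 2.3e-05).

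The genes most like Hk2, Hk3 and Slc16a3 over the 12 libraries were found among 9338 genes with at least 100 normalized counts on average, by the root mean square difference of log2 values centred on each gene's mean. For Hk2 these were Plekha5 (0.157), Siglece (0.185) and Psmb6 (0.195), the last at 1729 in WT, 3376 in WTL, 2421 in KO and 6549 in KOL. For Hk3 they were Ptbp1 (0.109), Zdhhc5 (0.110) and Ddhd1 (0.115). For Slc16a3 they were Abcg1 (0.0895), the sterol exporter, at 3590 normalized counts in WT, 2069 in WTL, 3501 in KO and 1384 in KOL, followed by Klf13 (0.0973) and Atf7ip (0.105). The measure was over libraries of 4 groups, so that likeness reflects mainly the group means.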

How the data were processed

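RNA-seq of 12 BMDC libraries in 4 groups of 3 was used. The authors removed adapters with Trim Galore, mapped the reads with STAR (2.5.1 per the submitters' processing notes) against mm10, and estimated gene abundance with RSEM. The deposited expected counts are estimates that need not be whole, and the deposited TPM, from which depth is lost, uses RSEM's effective length. The FPKM that the authors also deposited was not used. The study's methods name a stranded poly(A) kit and the labels ribosomal RNA depletion, and whether strand was used in counting is not given in the sources used here.

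Expected counts were rounded, TMM-normalized and filtered by group (filterByExpr), and 14008 genes were tested in 1 fit of 12 libraries with edgeR 4.0.16 in R 4.3.3 (glmQLFit, glmQLFTest) and Benjamini-Hochberg adjustment over all genes (threshold 0.05). Fold cutoffs followed the study's gene counts, at 2 (LPS in WT), 1.3 (Ctcf deletion without LPS) and 1.5 (Ctcf deletion with LPS), and the 2 used for LPS in CTCF-deficient cells was chosen here. Depth was 12769773 to 16586334 counts per library. Replicates are separate samples by their labels. The edgeR p-values rest on a spread between replicates estimated per gene over all 4 groups together and drawn toward that of other genes. They do not measure the spread of the compared groups alone, and the groups differed in it. Chi-square per degree of freedom between replicates was 1.66 to 1.86 in KO and 28.3 to 77.7 in WTL. Same-numbered libraries correlated at -0.286 to 0.112 in their deviations, so that no pairing by number was visible. This cannot tell whether same-numbered cultures shared an animal. Isozyme shares were tested with an exact two-sided permutation test (scipy 1.17.1). Copies were found by aligning transcripts (at least 90% identity over 200 bases). Alternatives used DESeq2 1.42.0, limma 3.58.1 on log2(TPM + 1) or log2(TPM + 0.1), other filters, the replicate number as a block and leaving out each library. Scaling TPM to a common median and leaving out WTL replicate 1 with KOL replicate 2 were added after seeing the data. The limma fits kept genes with at least 1 TPM in 3 libraries, and the tests were first checked on simulated counts. Named genes were the 10 members, Ctcf, the other isozymes, the genes most like 3 members, and per list at most 3 rises and 3 falls past the cutoff in WTL against WT and KO against WT at a mean of 100 normalized counts or more. Members and lists were chosen with earlier results of these data known. Gene positions are from GENCODE M21 on mm10. Some genes that the rule selects are not reported here.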

Additional observations from a re-analysis of the deposited data

Results flagged for a closer look

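The LPS response differed between CTCF-deficient and WT cells for 3 of the 10 genes, by edgeR's interaction term with Benjamini-Hochberg adjustment, which 8.70% of all genes passed upward and 8.75% downward. The response of Pfkl was higher by 0.469 on the log2 scale (SE 0.13, adjusted p = 0.022). That of Pfkp differed by -0.562 (SE 0.12, adjusted p = 0.0044) and that of Slc16a3 by -0.379 (SE 0.12, adjusted p = 0.036). The Slc16a3 call was lost in 13 and the Pfkl call in 5 of 22 alternatives. With 3 libraries in a group, no library was tested for standing apart in single genes.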

How the results depend on the processing

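Of 1140 log2 fold changes of the 10 genes under alternatives, 1046 kept their direction and side of the threshold, 50 lost the call, 12 gained one and 32 turned direction. Of 50 pairs of gene and comparison, 31 did not change at all. The 4 rises and 3 falls past 1.3-fold in KO against WT became 3 to 4 rises and 2 to 3 falls with the cutoff kept, and 4 and 4 without it. Hk2 moved there from 0.808 to 0.512 and Slc2a1 from 0.422 to 0.278 on log2(TPM + 1), and Eno1 lost its call on median-scaled TPM (-0.262, adjusted p = 0.13).

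With log2(TPM + 1) as with log2(TPM + 0.1), 0 genes were called higher and 1 lower in WTL against WT and 1 higher in KOL against KO, and 0 higher and 1 lower in the interaction, which median-scaled TPM also gave. Without a fold cutoff, 5 were higher and 3 lower in WTL against WT, 4 and 5 in KOL against WTL, and 5 and 2 in KOL against KO. In the interaction, DESeq2 and the fit without WTL replicate 1 and KOL replicate 2 called 2 higher, the added one being Pfkfb3, and no filter called 1 lower. Leaving out each library gave 0 to 1 lower in WTL against WT, and in the interaction 0 to 1 higher and 1 to 2 lower.

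On both TPM scales, with the smaller pseudocount second, direction turned for Slc2a1 in the interaction (0.021, 0.027), for Pfkl (-0.279, -0.287), Pfkp (-0.018, -0.018), Aldoa (-0.369, -0.369) and Ldha (-0.258, -0.258) in KOL against KO, and for Aldoa (-0.458, -0.458), Eno1 (-0.547, -0.548) and Ldha (-0.193, -0.193) in WTL against WT. Eno1 in WTL against WT was -0.002 on median-scaled TPM, and in KOL against KO 0.005 with DESeq2 and 0.011 with its size factors. Without WTL replicate 1 and KOL replicate 2, Pfkp in KOL against WTL was -0.072 and the Aldoa interaction -0.018. Leaving out single libraries turned Slc2a1 in the interaction (-0.22 to 0.036), Pfkp in KOL against WTL (-0.103 to 0.089), Aldoa in WTL against WT (-0.069 to 0.138) and in the interaction (-0.049 to 0.152), and Eno1 in WTL against WT (-0.006 to 0.16) and in KOL against KO (-0.061 to 0.026). None of these 6 was past the threshold with all libraries. The cause was not tested.

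The replicate number used as a block changed 2 calls: Pfkl passed in KOL against KO (0.203, adjusted p = 0.032) and Aldoa was lost in KOL against WTL (-0.21, adjusted p = 0.06). No pairing by number was visible in the deviations, and the block changed no other call. With 3 libraries in a group, differences of the size of the Aldoa falls depended on single libraries.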
